A study of Mus musculus with 33 samples.

Results

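The comparison covers 6 RNA-seq libraries of sorted GFP+ cells from whole mouse bone (femur and tibia), 6 of the 33 libraries in the series. Vav1 DTX EC is the name used here for the 3 libraries titled as bone endothelial cells (EC) with DTX, and Vav1 control EC for the 3 libraries titled as their controls. All 6 share strain C57BL/6, an age of 8 to 12 weeks, diphtheria toxin and one genotype, Vav1-Cre with R26-DTR and Cdh5-mTnG. The titles and the column names, which read Cre or Cont, alone separate the groups, so what the controls lacked is not given in the sources used here. Members are the genes with at least 1 FPKM (fragments scaled to gene length and library depth) in at least 3 of the 6 libraries, which 11664 of 38899 genes met. A second contrast sets bone EC of Cdh5-mTnG mice irradiated with 9 Gy against bone EC of untreated Cdh5-mTnG mice (3 libraries each), also C57BL/6 and 8 to 12 weeks old. The labels do not say whether the 3 libraries of a group came from separate mice, so every p-value below measures the spread between these libraries, which may be technical.

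Vav1-Cre is active in blood-forming cells and their descendants, and recombination of the R26-DTR allele gives such cells a receptor for diphtheria toxin. The toxin blocks protein synthesis by modifying elongation factor 2 and kills cells that carry the receptor, so the model is built to remove blood cells. The word ablation below names the Vav1 contrast by that design, and not a measured loss of every blood cell type. Cdh5-mTnG marks cells with an active Cdh5 (VE-cadherin) promoter, the vessel lining, by green fluorescence. Endothelial cells of bone marrow line arterioles and sinusoids, display adhesion molecules to passing leukocytes and secrete factors such as CXCL12, stem cell factor and G-CSF that hold, feed or mobilise blood cells.

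Reads recovered from the steps of the FPKM values came to 9923517 to 12456836 in the Vav1 DTX EC libraries and 8817565 to 10413635 in the Vav1 control EC libraries. Vav1 DTX EC replicate 2 stood apart from the other libraries of its group. It correlated with them at 0.956 and 0.947 on the log2 scale across genes, against 0.983 between replicates 1 and 3 and 0.982 to 0.983 among controls. In it, 431 genes were at least 2-fold above both other Vav1 DTX EC libraries, against 16 such genes in replicate 1 and 36 in replicate 3.

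All 22 genes of a pan-endothelial list (Cdh5, Pecam1, Kdr, Tek and others) were detected above the filter. Their FPKM values summed to 0.409%, 0.783% and 0.368% of the library total in Vav1 DTX EC, against 0.323%, 0.315% and 0.419% in Vav1 control EC. The groups overlapped, and the library that stood apart was the highest. Transcripts of mature neutrophils took a far larger part of the same libraries. The 24 genes of the late neutrophil list, led by the calprotectin subunit S100a8, held 16.4%, 8.30% and 18.6% of the FPKM sum in Vav1 DTX EC and 17.5%, 16.7% and 16.9% in Vav1 control EC. Of recovered reads they held 6.8%, 3.46% and 7.91% in Vav1 DTX EC and 8.49%, 8.14% and 8.08% in Vav1 control EC. Those read shares did not overlap. The labelled cell type was therefore present, but much of the measured RNA was of blood cell genes in both groups. Untreated bone EC libraries of the same sort in another table gave 10.6% to 11.8% for the late neutrophil list and 0.482% to 0.590% for the pan-endothelial list. In bulk libraries, fewer cells of a type and less RNA per cell cannot be told apart.

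**Figure D1:**
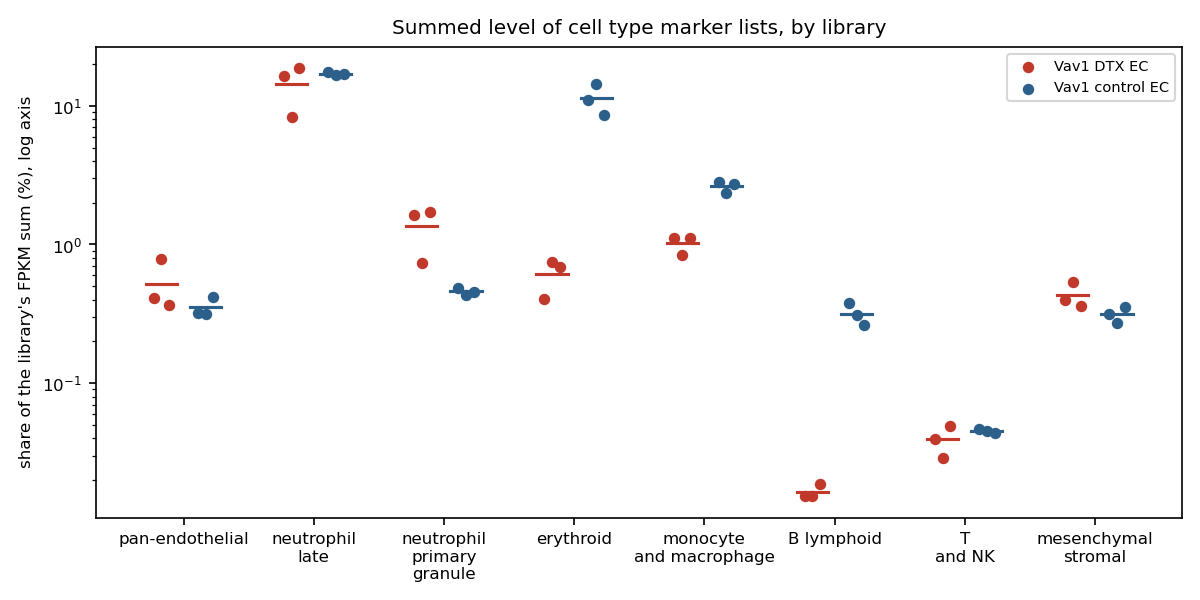
Share of each library's FPKM sum (%, log axis) taken by 8 marker lists, with Vav1 DTX EC (red) left of Vav1 control EC (blue); points are libraries and bars the group means (n = 3). The erythroid and B lymphoid lists separate the groups most widely, while the pan-endothelial and late neutrophil lists overlap in this FPKM share.

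Of 11664 genes, 3065 passed at an adjusted p below 0.05 (limma on log2(FPKM + 1), two-sided), which is 26.3% of those tested. Of these, 1317 (11.3% of tested genes) were higher and 1748 (15%) were lower in Vav1 DTX EC. These shares are the background for each list count below. The groups did not overlap for 46.3% of all tested genes (22.7% higher, 23.6% lower), called or not. Large differences lay mostly on the lower side, where 993 called genes fell by more than 2-fold and 151 by more than 8-fold, against 264 and 21 on the higher side. The direction of the smaller differences depended on the scale. Higher genes made up 43.0% of calls on FPKM, 67.3% on TPM (where the median of all genes shifted from 0.03 to 0.24) and 11.5% when each library was scaled to its summed pan-endothelial level (median -0.16). The count was 4782 without Vav1 DTX EC replicate 2, and 1657, 1680 and 1710 without control replicate 1, 2 or 3. Of the 3065 called genes, 1470 kept their call and direction without each library in turn, 415 of them higher and 1055 lower.

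**Figure D2:**
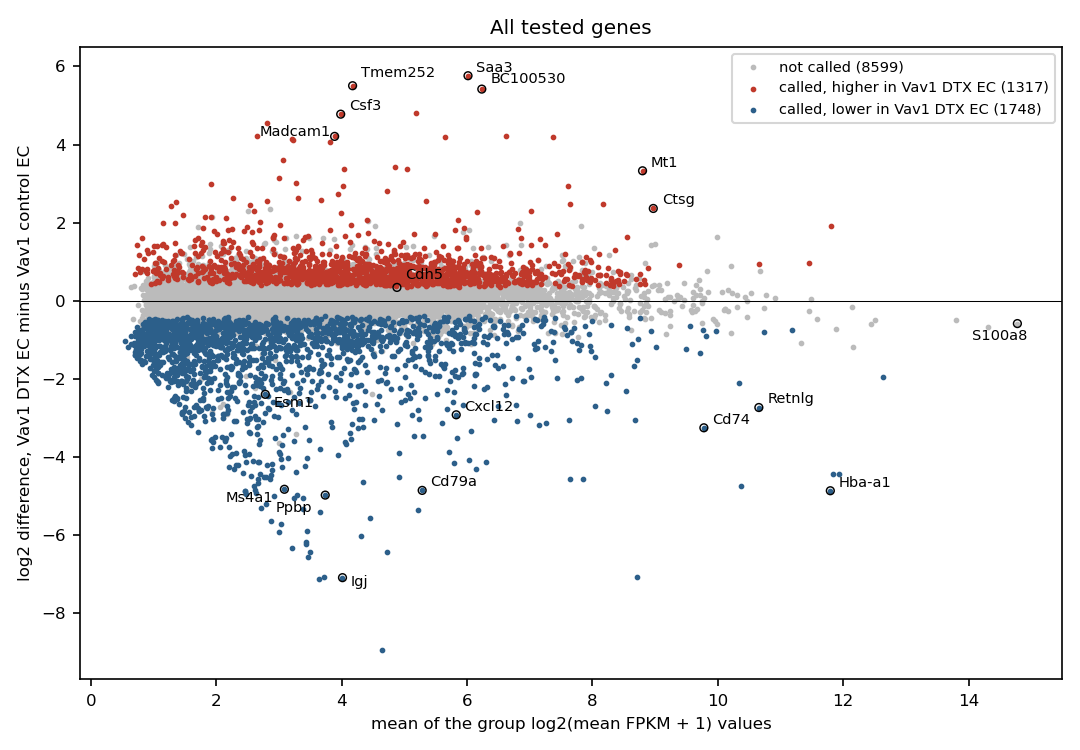
Log2 difference (Vav1 DTX EC minus Vav1 control EC) against mean log2 level for the 11664 tested genes, with called genes in red (higher, 1317) and blue (lower, 1748). BC100530, Mt1 and Ctsg lie among well-expressed genes that rose, Igj and Hba-a1 among those that fell, and Cdh5 and S100a8 near the middle.

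Red cell transcripts were nearly lost from the Vav1 DTX EC libraries. The erythroid list held 0.403%, 0.742% and 0.688% of the FPKM sum in Vav1 DTX EC, against 11%, 14.4% and 8.55% in Vav1 control EC, and 22 of its 23 tested genes fell (median -3.44, against 0.03 for all genes). Of the 23, 2 passed the filter through 1 group only. Hba-a1, an alpha-globin gene whose reads cannot be fully told from its near-identical copy Hba-a2, stood at 472, 853 and 654 FPKM in Vav1 DTX EC and 20778, 22636 and 13913 FPKM in Vav1 control EC (log2 difference -4.86 ± 0.28, SE; adjusted p = 0.000101). Alas2, the first enzyme of heme synthesis in red cells, measured 25.1, 45.9 and 49.5 FPKM in Vav1 DTX EC, against 1013, 1218 and 665 FPKM in Vav1 control EC (log2 difference -4.57 ± 0.31, SE; adjusted p = 0.000155). Slc4a1, the band 3 anion exchanger of the red cell membrane, fell to a mean of 5.26 ± 0.997 FPKM in Vav1 DTX EC, against 144 ± 37.6 in Vav1 control EC (SD, n = 3 each) (log2 difference -4.52 ± 0.21, SE; adjusted p = 6.61e-05). The groups did not overlap for any of these genes, which was a condition of their selection among the largest differences. Car1 (carbonic anhydrase 1) and Hemgn (hemogen) fell by 3.51 and 3.66 on the log2 scale.

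B cell transcripts also fell. All 17 tested genes of the B lymphoid list (22 listed) fell, with a median of -3.04, and 4 of the 17 passed the filter only through the control libraries. Cd79a, a signalling chain of the B cell receptor, had 5.24, 7.22 and 6.3 FPKM in Vav1 DTX EC and 224, 225 and 178 FPKM in Vav1 control EC (log2 difference -4.86 ± 0.16, SE; adjusted p = 2.16e-05). Ms4a1, which encodes CD20, had 0.225, 1.03 and 0.522 FPKM in Vav1 DTX EC, against 57.7, 43.3 and 32.3 FPKM in Vav1 control EC (log2 difference -4.83 ± 0.26, SE; adjusted p = 0.000101). Vpreb3, expressed in precursor B cells, fell to 3.08 ± 0.964 FPKM in Vav1 DTX EC, against 99.7 ± 10.8 in Vav1 control EC (SD, n = 3 each). Igj, the joining chain of secreted IgM and IgA (also named Jchain), had the largest fall among genes named by rule, with 1.02, 0.0532 and 0.108 FPKM in Vav1 DTX EC and 199, 236 and 125 FPKM in Vav1 control EC (log2 difference -7.09 ± 0.32, SE; adjusted p = 6.61e-05). Mzb1, a chaperone for antibody assembly, fell to 1.51 ± 0.823 FPKM in Vav1 DTX EC, against 45 ± 6.33 in Vav1 control EC (SD, n = 3 each). The plasma cell list was not uniform, since Fkbp11, a foldase of the secretory pathway, rose to 33.3 ± 1.67 FPKM in Vav1 DTX EC, against 6.31 ± 0.711 in Vav1 control EC (SD, n = 3 each) (log2 difference 2.24 ± 0.13, SE; adjusted p = 0.000101). In all, 6 of its 9 tested genes fell and 2 rose, and 2 of the 9 passed the filter through 1 group only.

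T and NK cell genes fell in 16 of 18 tested members (26 listed, of which 6 of the 18 passed only through the controls), with a median of -1.91. Trac, the T cell receptor alpha constant region, had 1.49, 1.64 and 0.946 FPKM in Vav1 DTX EC, against 14.2, 13.6 and 11.5 FPKM in Vav1 control EC (log2 difference -2.59 ± 0.17, SE; adjusted p = 0.000128). Cd3e, a subunit of the same receptor, had 0.483, 0.806 and 0.612 FPKM in Vav1 DTX EC and 5.99, 4.09 and 4.89 FPKM in Vav1 control EC. Klrd1, which encodes the NK receptor chain CD94, fell to 1.14 ± 0.263 FPKM in Vav1 DTX EC, against 8.25 ± 1.4 in Vav1 control EC (SD, n = 3 each). Trac and Klrd1 stayed low in each Vav1 DTX EC library, with no overlap. Cd3e passed the filter through the controls only, so its lack of overlap followed from the filter. The summed FPKM share of the whole list did overlap, at 0.0397%, 0.0290% and 0.0493% in Vav1 DTX EC and 0.0467%, 0.0449% and 0.0440% in Vav1 control EC. Its share of recovered reads did not, at 0.0193%, 0.0152% and 0.0239% in Vav1 DTX EC and 0.0304%, 0.0297% and 0.0277% in Vav1 control EC.

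Of the monocyte and macrophage list 17 of 24 tested genes fell and none rose, and of the dendritic cell list 7 of 9 fell. In each list, 2 tested genes passed the filter through 1 group only. Csf1r, the receptor for macrophage colony-stimulating factor, had 16.9, 9.62 and 14.7 FPKM in Vav1 DTX EC, against 82.4, 69.4 and 70.4 FPKM in Vav1 control EC (log2 difference -2.38 ± 0.21, SE; adjusted p = 0.000368). Cx3cr1, the fractalkine receptor of patrolling monocytes, fell to 2.25 ± 0.169 FPKM in Vav1 DTX EC, against 19.7 ± 1.11 in Vav1 control EC (SD, n = 3 each) (log2 difference -2.67 ± 0.12, SE; adjusted p = 6.61e-05). C1qa, a complement component made by tissue macrophages, fell to 4.55 ± 2.46 FPKM in Vav1 DTX EC, against 54.1 ± 11.8 in Vav1 control EC (SD, n = 3 each). Siglech of plasmacytoid dendritic cells fell to 3.96 ± 2.33 FPKM in Vav1 DTX EC, against 54.9 ± 2.49 in Vav1 control EC (SD, n = 3 each). Megakaryocyte and platelet genes fell in 10 of 15 tested members and rose in 1, Selp, and 3 of the 15 passed the filter through 1 group only. Eosinophil, basophil and mast cell genes fell in 10 of 17 and rose in none. Pan-leukocyte genes fell in 9 of 22 and rose in none, and Vav1 itself was not called (log2 difference -0.24, adjusted p = 0.618). Ppbp, a platelet chemokine, had 1.14, 1.43 and 0.271 FPKM in Vav1 DTX EC and 175, 84.7 and 12.7 FPKM in Vav1 control EC, with wide spread among the controls. Prg2, the eosinophil major basic protein, had 539.6, 792 and 529 FPKM in Vav1 DTX EC, against 2509, 3625 and 1978 FPKM in Vav1 control EC (log2 difference -2.10 ± 0.27, SE; adjusted p = 0.00183).

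**Figure D3:**
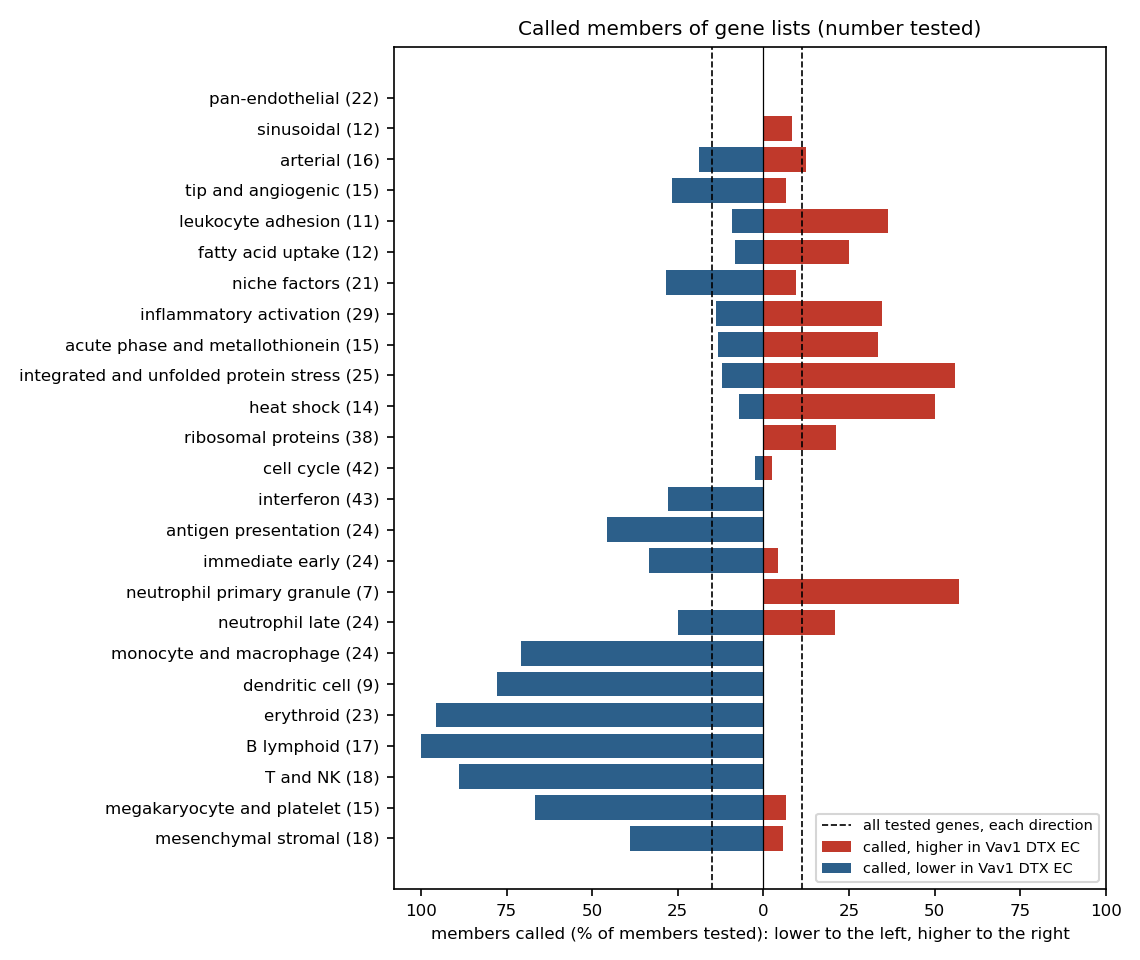
Percentage of the tested members of 25 gene lists called higher (red, right) or lower (blue, left) in Vav1 DTX EC; dashed lines give the shares over all tested genes (11.3% higher, 15% lower) and numbers in brackets the members tested. Red cell, lymphoid and myeloid lists extend left, stress, heat shock and primary granule lists extend right, and the pan-endothelial list has no bar.

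Primary granule genes, made in promyelocytes, rose in 4 of 7 tested members and fell in none. Ctsg (cathepsin G) had 1550.3, 578 and 1434 FPKM in Vav1 DTX EC and 232, 208 and 193 FPKM in Vav1 control EC (log2 difference 2.36 ± 0.36, SE; adjusted p = 0.00406). Ms4a3, a marker of granulocyte and monocyte progenitors, had 763, 419.6 and 892 FPKM in Vav1 DTX EC, against 133, 121 and 100.2 FPKM in Vav1 control EC (log2 difference 2.48 ± 0.28, SE; adjusted p = 0.00118). Prtn3 (proteinase 3) rose to 677 ± 244 FPKM in Vav1 DTX EC, against 206 ± 12.4 in Vav1 control EC (SD, n = 3 each), whereas Elane (neutrophil elastase) had 2340.2, 1288 and 2861 FPKM in Vav1 DTX EC and 1253, 1241 and 1164 FPKM in Vav1 control EC and did not pass (adjusted p = 0.0991). In each of these the lowest Vav1 DTX EC library was replicate 2, which also had the lowest late neutrophil share.

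Late neutrophil genes rose in 5 and fell in 6 of 24 tested members, and 3 of the rises were the stefin genes described next. S100a8 had 27326, 12558 and 31427 FPKM in Vav1 DTX EC, against 33503, 35862 and 30243 FPKM in Vav1 control EC, the groups overlapped, and it was not called (adjusted p = 0.293). Retnlg, a resistin-like protein and one of the 6 that fell, had 755, 467 and 669 FPKM in Vav1 DTX EC and 4278, 4027 and 4047 FPKM in Vav1 control EC (log2 difference -2.73 ± 0.20, SE; adjusted p = 0.000217). Also among them, Ly6g, the Gr-1 surface antigen, had 53.5, 27 and 60.4 FPKM in Vav1 DTX EC, against 363, 308 and 366 FPKM in Vav1 control EC, and Mmp9, a gelatinase of tertiary granules, had 142, 47.9 and 133 FPKM in Vav1 DTX EC and 685, 634 and 593 FPKM in Vav1 control EC. The list counted 8 higher and 10 lower without Vav1 DTX EC replicate 2, and the primary granule list 7 and 0. Scaled to the pan-endothelial level, the primary granule list counted 2 and 0.

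Among the largest rises were genes of the stefin A cluster, which encodes inhibitors of cysteine cathepsins expressed in neutrophils and their precursors. BC100530 (chr16:36359382-36367748, minus strand, GRCm38) had 561, 213 and 801 FPKM in Vav1 DTX EC, against 11.3, 7.74 and 10.4 FPKM in Vav1 control EC (log2 difference 5.42 ± 0.45, SE; adjusted p = 0.000335). Stfa2 (chr16:36403992-36408457, minus strand) had 244, 105 and 229.9 FPKM in Vav1 DTX EC and 8.95, 3.47 and 5.14 FPKM in Vav1 control EC (log2 difference 4.81 ± 0.40, SE; adjusted p = 0.000324). Stfa1 (chr16:36276951-36285373, plus strand) had 893, 301 and 1056 FPKM in Vav1 DTX EC, against 41.4, 28.1 and 37.6 FPKM in Vav1 control EC (log2 difference 4.18 ± 0.45, SE; adjusted p = 0.000952). For all 3, the groups did not overlap, a condition of their selection among the largest rises, and replicate 2 was the lowest Vav1 DTX EC library. The annotation places 24 genes of the table within 100 kb of the cluster, of which 8 passed the filter and 7 rose, a count made after the values were seen. The additional ones were Stfa3, BC117090, Gm5483 and 2010005H15Rik, with log2 differences of 2.82, 2.42, 1.71 and 4.54, while Gm5416 differed by 0.49 and was not called. Of these, BC117090 passed the filter through the Vav1 DTX EC libraries only. These copies resemble each other in sequence, so how their reads were divided among them is uncertain.

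Of 24 tested antigen presentation genes 11 fell, of 43 tested interferon response genes 12 fell (27.9%), and none of either list rose. The remaining 13 and 31 were not called. Over all tested genes, 15% were called lower. Cd74, the invariant chain of MHC class II, had 273, 343 and 237 FPKM in Vav1 DTX EC and 3064, 2396 and 2645 FPKM in Vav1 control EC (log2 difference -3.25 ± 0.18, SE; adjusted p = 0.000101). H2-Aa and H2-Ab1, the chains of the class II molecule I-A, fell to 51.2 ± 12.5 FPKM in Vav1 DTX EC, against 449 ± 52.2 in Vav1 control EC (SD, n = 3 each) and to 114 ± 28.9 FPKM in Vav1 DTX EC, against 796 ± 106 in Vav1 control EC (SD, n = 3 each). Rsad2 (viperin), an interferon-induced antiviral enzyme, had 11.9, 28.9 and 15.9 FPKM in Vav1 DTX EC, against 118, 185 and 94.3 FPKM in Vav1 control EC (log2 difference -2.78 ± 0.36, SE; adjusted p = 0.00189). The interferon list had a median of -0.54, and 32 of its 43 genes were lower without Vav1 DTX EC replicate 2. Its summed share overlapped between groups, at 0.481%, 0.978% and 0.527% in Vav1 DTX EC and 0.641%, 0.609% and 0.676% in Vav1 control EC. The B cell and macrophage lists, whose cells express class II genes, fell in the same libraries. Their part in this result was not tested.

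Immediate early genes, switched on within minutes of a stimulus, fell in 8 and rose in 1 of 24 tested members. Over all tested genes, the shares were 15% lower and 11.3% higher. Nr4a1, an orphan nuclear receptor, had 162, 174 and 143 FPKM in Vav1 DTX EC and 413, 429 and 456 FPKM in Vav1 control EC (log2 difference -1.44 ± 0.12, SE; adjusted p = 0.000368). Btg2, an antiproliferative immediate early gene, fell to 167 ± 68.4 FPKM in Vav1 DTX EC, against 593 ± 3.57 in Vav1 control EC (SD, n = 3 each). The single rise on the list, named after its values were seen, was Myc, a growth-promoting transcription factor, with 38.7, 65.9 and 38.3 FPKM in Vav1 DTX EC, against 25.8, 24.8 and 23.4 FPKM in Vav1 control EC (log2 difference 0.88 ± 0.22, SE; adjusted p = 0.0248). Egr4, a zinc finger transcription factor outside the list and among the 15 largest rises, had 17.7, 104 and 15 FPKM in Vav1 DTX EC and 0.537, 0.458 and 1.53 FPKM in Vav1 control EC (log2 difference 4.15 ± 0.69, SE; adjusted p = 0.00554). Replicate 2 was far above the other Vav1 DTX EC libraries, and all 3 exceeded every control, a condition of selection among the 15 largest rises.

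Genes that define endothelium did not pass in either direction. None of the 22 pan-endothelial genes was called, with a median of 0.32. Cdh5 had 22.9, 56 and 21.8 FPKM in Vav1 DTX EC, against 18.2, 25.9 and 28.5 FPKM in Vav1 control EC (log2 difference 0.34 ± 0.37, SE), Kdr (VEGF receptor 2) had 41.9, 51.2 and 22.2 FPKM in Vav1 DTX EC and 36.9, 39.8 and 44 FPKM in Vav1 control EC, and Tek (the angiopoietin receptor TIE2) had 22.2, 26.2 and 19 FPKM in Vav1 DTX EC, against 22.1, 22.9 and 23.9 FPKM in Vav1 control EC. Plvap, a component of endothelial diaphragms, had 801, 1016 and 503 FPKM in Vav1 DTX EC and 809, 792 and 972 FPKM in Vav1 control EC. The groups overlapped for all 4, and the difference of Cdh5 was -0.09 without Vav1 DTX EC replicate 2. Calls appeared in some settings: 3 of the 22 genes were higher without Vav1 DTX EC replicate 1, 2 were higher and 2 lower without replicate 2, and 4 were higher on TPM. Stab2, a scavenger receptor of sinusoids, had 62.1, 106 and 18.7 FPKM in Vav1 DTX EC, against 16.5, 17 and 22 FPKM in Vav1 control EC and was not called (log2 difference 1.40, adjusted p = 0.108). Without Vav1 DTX EC replicate 3 it differed by 2.08 and was called (adjusted p = 0.00427), and without replicate 2 it differed by 0.86.

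Edn1 and 4 of 11 tested leukocyte adhesion genes were higher. Edn1, the vasoconstrictor endothelin 1, had 11.1, 18 and 9.21 FPKM in Vav1 DTX EC and 1.27, 1.15 and 1.94 FPKM in Vav1 control EC (log2 difference 2.45 ± 0.26, SE; adjusted p = 0.000819). Madcam1, an addressin that leukocytes bind, had 43.2, 151 and 23.7 FPKM in Vav1 DTX EC, against 2.5, 1.72 and 1.74 FPKM in Vav1 control EC (log2 difference 4.21 ± 0.60, SE; adjusted p = 0.00286). Selp (P-selectin) had 114, 183 and 41.4 FPKM in Vav1 DTX EC and 24.5, 25.8 and 29 FPKM in Vav1 control EC (log2 difference 1.82 ± 0.48, SE; adjusted p = 0.0318). Icam1, a ligand of leukocyte integrins, had 133, 483 and 98.6 FPKM in Vav1 DTX EC, against 51.5, 46.8 and 56.7 FPKM in Vav1 control EC (log2 difference 1.83 ± 0.54, SE; adjusted p = 0.0447). Of the endothelin, nitric oxide and adrenomedullin list, 3 of 20 tested genes rose and 2 fell, close to the background of 11.3% and 15%. The falls were Ptgs2 and Tbxas1, enzymes of prostanoid synthesis, by 1.75 and 0.76. The call of Tbxas1 was lost without control replicate 1 or 2 (adjusted p = 0.0671 and 0.0627). The adhesion gene Alcam fell by 0.47, and its call was lost without each of the 6 libraries in turn (adjusted p up to 0.135). Those fits counted 1 to 5 adhesion genes higher and none lower. Edn1 and Madcam1 kept their calls without each library and when scaled to the pan-endothelial level, where they differed by 2.28 and 4.01.

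Calls of Selp, Icam1 and a further adhesion gene, Sele (E-selectin), were less secure. Sele was higher by 1.08 at an adjusted p of 0.0493. It lost its call without any one library other than Vav1 DTX EC replicate 3 (adjusted p up to 0.137). Scaling to the pan-endothelial level also removed the call of Sele (log2 difference 0.86, adjusted p = 0.198). Selp was at an adjusted p of 0.095 without Vav1 DTX EC replicate 1 and of 0.101, 0.0956 and 0.0818 without control replicate 1, 2 or 3. Icam1 was at 0.0698 without Vav1 DTX EC replicate 1 and at 0.122, 0.13 and 0.106 without those controls, and its difference was 1.14 without Vav1 DTX EC replicate 2. Scaled to the pan-endothelial level, Selp differed by 1.59 and Icam1 by 1.6, with adjusted p of 0.0211 and 0.0169.

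Angiogenic genes moved in opposite directions. Esm1 (endocan), a marker of endothelial tip cells, had 2.32, 1.75 and 1.91 FPKM in Vav1 DTX EC and 13, 13.4 and 18.3 FPKM in Vav1 control EC (log2 difference -2.40 ± 0.17, SE; adjusted p = 0.000198). Apln, the peptide ligand apelin of sprouting endothelium (chromosome X), had 3.8, 1.87 and 2.91 FPKM in Vav1 DTX EC, against 8.13, 6.83 and 8.54 FPKM in Vav1 control EC (log2 difference -1.22 ± 0.21, SE; adjusted p = 0.00654). Cxcr4, the receptor for CXCL12, had 9.68, 4.16 and 8.64 FPKM in Vav1 DTX EC and 35.4, 36.7 and 33.5 FPKM in Vav1 control EC (log2 difference -2.16 ± 0.27, SE; adjusted p = 0.00168). For each of the 3, no Vav1 DTX EC library reached the lowest control. Blood cells express Cxcr4 too, and the B cell and macrophage lists fell in the same libraries. Their part in the fall of Cxcr4 was not tested. Vegfc, a growth factor for lymphatic and sinusoidal vessels, fell to 2.81 ± 0.42 FPKM in Vav1 DTX EC, against 6.19 ± 0.922 in Vav1 control EC (SD, n = 3 each). Angpt2, the angiopoietin that destabilises vessels, had 7.67, 14.4 and 5.95 FPKM in Vav1 DTX EC, against 2.55, 2.58 and 3.38 FPKM in Vav1 control EC (log2 difference 1.35 ± 0.29, SE; adjusted p = 0.0151). It lost its call without control replicate 1 or 2, at adjusted p of 0.0622 and 0.0602. Of the tip and angiogenic list, 4 of 15 genes fell and 1 rose, against 8 and 4 without Vav1 DTX EC replicate 2. With all libraries, 15% of all tested genes were called lower and 11.3% higher. Scaled to the pan-endothelial level, Esm1 and Apln stayed lower (adjusted p = 0.000227 and 0.0331) and Angpt2 higher (0.0195), while Nid2 lost its call (0.0749). On that scale Igfbp3, Pgf and Adm, named after their values were seen, were higher by 1.54, 1.81 and 1.39 (adjusted p = 0.0284, 0.0167 and 0.0274).

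**Figure D4:**
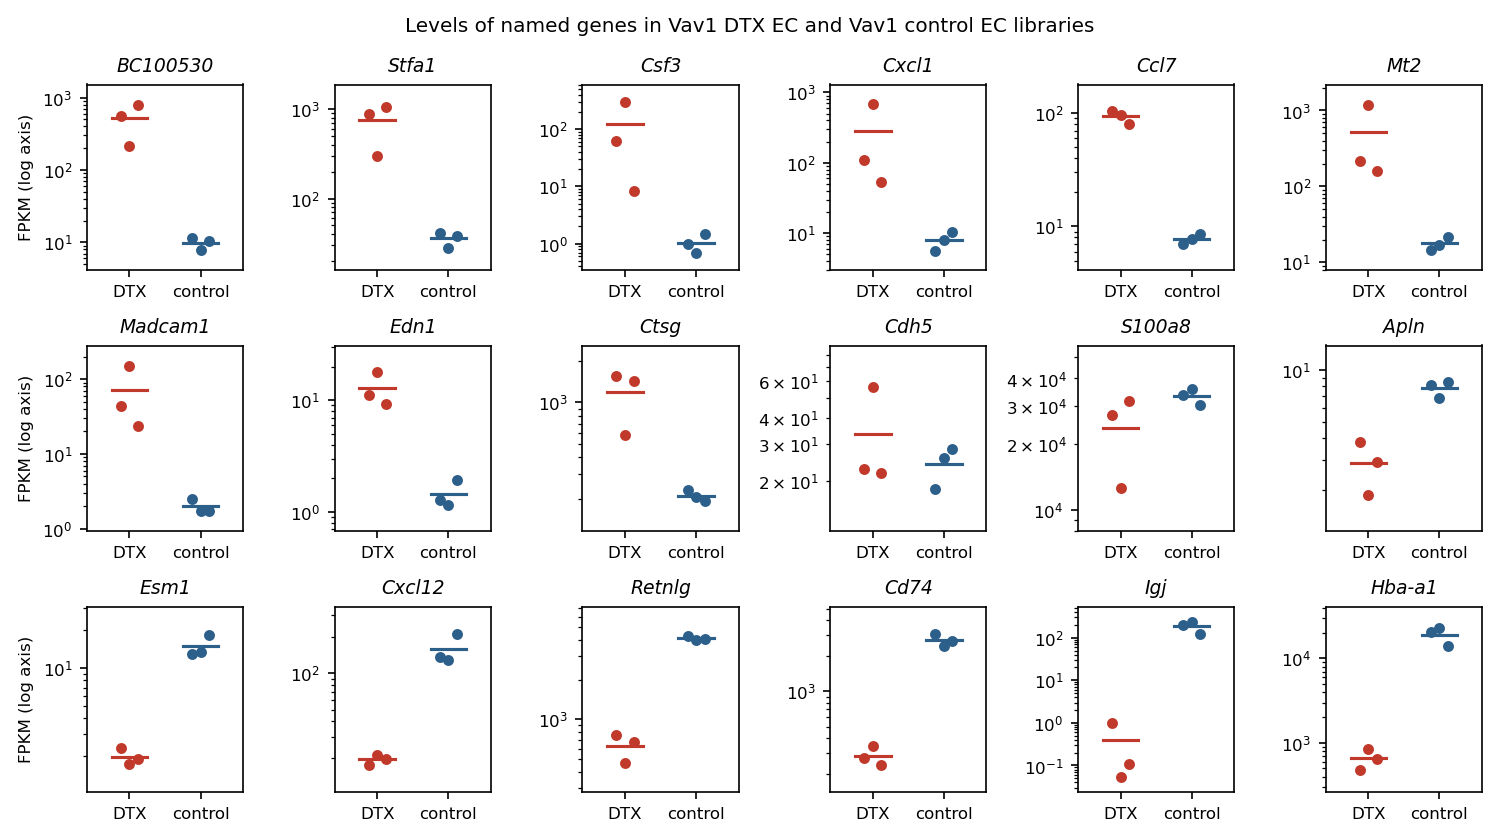
FPKM (log axis) of 18 named genes in each library, with Vav1 DTX EC (red) left of Vav1 control EC (blue) and bars at the group means (n = 3). BC100530 to Ctsg are higher in every Vav1 DTX EC library, Cdh5 and S100a8 overlap, and Apln to Hba-a1 are lower in every Vav1 DTX EC library. For genes selected among the largest differences, this separation was a condition of selection.

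Among factors that act on blood cells, Csf3 was higher and Cxcl12 was lower. Csf3, which encodes G-CSF, the growth and mobilising factor of neutrophils, had 61.7, 296 and 8.15 FPKM in Vav1 DTX EC and 0.974, 0.692 and 1.47 FPKM in Vav1 control EC (log2 difference 4.78 ± 1.10, SE; adjusted p = 0.0192). Every Vav1 DTX EC library exceeded every control, a condition of its selection among the largest rises, with a wide spread within Vav1 DTX EC. The call was lost without Vav1 DTX EC replicate 1 (adjusted p = 0.0624), without control replicate 1, 2 or 3 (0.0668, 0.0687 and 0.0553) and with limma voom on recovered reads (0.102). It held without Vav1 DTX EC replicate 2 (log2 difference 3.57, adjusted p = 0.00677). Cxcl12, the chemokine that retains stem cells and neutrophils in marrow, had 17.6, 21.1 and 19.6 FPKM in Vav1 DTX EC, against 136, 127 and 209 FPKM in Vav1 control EC (log2 difference -2.92 ± 0.20, SE; adjusted p = 0.000155). Kitl, stem cell factor, had 1.65, 3.08 and 2.12 FPKM in Vav1 DTX EC and 1.73, 2.52 and 3.51 FPKM in Vav1 control EC and was not called (adjusted p = 0.742). Igf1, insulin-like growth factor 1, fell to 0.533 ± 0.165 FPKM in Vav1 DTX EC, against 1.5 ± 0.161 in Vav1 control EC (SD, n = 3 each), with an adjusted p of 0.0125 that was above 0.05 without control replicate 3. It passed the filter through the control libraries only. Over the niche factor list, 2 of 21 tested genes rose and 6 fell, and 3 of the 21 passed the filter through 1 group only. Of all tested genes, 11.3% were called higher, near the share of rises in this list, and 15% lower.

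Cxcl12 is made in marrow above all by stromal cells and belongs to the mesenchymal stromal list, of which some other genes also fell. Adipoq (adiponectin), expressed by adipocyte-lineage stroma, had 9.22, 16.1 and 10.5 FPKM in Vav1 DTX EC, against 48.7, 44.6 and 65.8 FPKM in Vav1 control EC (log2 difference -2.08 ± 0.23, SE; adjusted p = 0.00112). Lepr, the leptin receptor of perivascular stroma, had 2.75, 3.5 and 1.27 FPKM in Vav1 DTX EC and 8.11, 6.54 and 10.4 FPKM in Vav1 control EC, and Cxcl14, another chemokine, had 1.48, 1.16 and 1.18 FPKM in Vav1 DTX EC, against 14.9, 18.2 and 23.4 FPKM in Vav1 control EC (log2 difference -3.10 ± 0.19, SE; adjusted p = 0.000104). For these genes, no Vav1 DTX EC library overlapped the controls. The mesenchymal stromal list had 7 of 18 tested genes lower and 1 higher, Lpl, while 10 were not called. As a whole it held 0.398%, 0.535% and 0.359% of the FPKM sum in Vav1 DTX EC and 0.313%, 0.270% and 0.356% in Vav1 control EC. Every Vav1 DTX EC share was thus above every control share, though its shares of recovered reads overlapped. The FPKM sums that divide these shares were lower in Vav1 DTX EC (467971 to 485898) than in Vav1 control EC (540728 to 602694), which raises a share. The list also holds Lpl, which rose, and Vcam1, which is in the sinusoidal list as well. The shares therefore do not show that stromal content was higher. The part of stromal cell content in the fall of Cxcl12 was not tested. Of the osteoblast list, 3 of 9 tested genes fell and 1, Fgf23, rose, with Ibsp, the bone sialoprotein of osteoblasts, at 7.05, 4.29 and 17.1 FPKM in Vav1 DTX EC and 69.6, 62.6 and 117 FPKM in Vav1 control EC (log2 difference -3.14 ± 0.45, SE; adjusted p = 0.00308), and Acp5, the acid phosphatase of osteoclasts, lower by a log2 difference of -2.19. Fgf23, a phosphate-regulating hormone, had 14.7, 23.2 and 10.9 FPKM in Vav1 DTX EC, against 2.72, 1.35 and 1.53 FPKM in Vav1 control EC (log2 difference 2.56 ± 0.30, SE; adjusted p = 0.00125).

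Chemokines and acute phase genes were among the largest rises. Saa3, the inducible serum amyloid A, had 381, 2019 and 22.2 FPKM in Vav1 DTX EC and 1.73, 5.07 and 5.77 FPKM in Vav1 control EC (log2 difference 5.76 ± 1.44, SE; adjusted p = 0.0263). Cxcl1, a neutrophil-attracting chemokine, had 109, 679.7 and 53.8 FPKM in Vav1 DTX EC, against 5.66, 8.08 and 10.3 FPKM in Vav1 control EC (log2 difference 4.19 ± 0.83, SE; adjusted p = 0.0112). The metallothioneins Mt1 and Mt2 bind zinc and rise in acute phase responses. Mt1 had 989, 2743 and 827 FPKM in Vav1 DTX EC and 130.5, 119 and 139 FPKM in Vav1 control EC (log2 difference 3.33 ± 0.42, SE; adjusted p = 0.00179). Mt2 had 215, 1176 and 161 FPKM in Vav1 DTX EC, against 14.7, 17.2 and 21.7 FPKM in Vav1 control EC (log2 difference 4.21 ± 0.69, SE; adjusted p = 0.00507). Replicate 2 was the highest Vav1 DTX EC library for all 4, and every Vav1 DTX EC library exceeded every control. For Saa3, Cxcl1 and Mt2 this separation was a condition of their selection among the largest rises.

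Saa3 depended on single libraries. It lost its call without Vav1 DTX EC replicate 1 (adjusted p = 0.0809), without control replicate 1, 2 or 3 (0.0943, 0.0745 and 0.0676), with no filter on low values (0.0603) and with limma voom on recovered reads (0.134). Its difference was 4.29 (adjusted p = 0.0162) without Vav1 DTX EC replicate 2. Cxcl1, Mt1 and Mt2 kept their calls without each library in turn.

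The promoters of these 4 genes, all called higher, are shown here. Each runs from 250 bases before to 50 after the RefSeq start (GRCm38.p6), 5′ to 3′ on the gene's strand. Capitals mark matches on either strand to a form of the NF-kB motif (GGGA and TTCC with any 2 bases between them) in Cxcl1. In Saa3 they mark TTGCNNAA, a form of the C/EBP motif. In Mt1 and Mt2 they mark TGCNCNC, a loose form of the metal response element core, which has A or G at the first N.
Cxcl1, chr5:90890995-90891294, plus strand: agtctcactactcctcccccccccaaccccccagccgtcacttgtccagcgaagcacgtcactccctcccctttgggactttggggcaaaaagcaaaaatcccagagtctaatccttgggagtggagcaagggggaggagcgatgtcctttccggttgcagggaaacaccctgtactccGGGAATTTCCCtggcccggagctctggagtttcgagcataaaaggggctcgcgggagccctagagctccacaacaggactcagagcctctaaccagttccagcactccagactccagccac
Saa3, chr7:46715627-46715926, minus strand: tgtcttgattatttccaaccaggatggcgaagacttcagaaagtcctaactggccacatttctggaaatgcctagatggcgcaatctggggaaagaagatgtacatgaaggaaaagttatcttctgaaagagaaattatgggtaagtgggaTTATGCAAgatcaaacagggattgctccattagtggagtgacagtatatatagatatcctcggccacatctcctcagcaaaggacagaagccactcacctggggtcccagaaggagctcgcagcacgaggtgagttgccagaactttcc
Mt1, chr8:94178839-94179138, plus strand: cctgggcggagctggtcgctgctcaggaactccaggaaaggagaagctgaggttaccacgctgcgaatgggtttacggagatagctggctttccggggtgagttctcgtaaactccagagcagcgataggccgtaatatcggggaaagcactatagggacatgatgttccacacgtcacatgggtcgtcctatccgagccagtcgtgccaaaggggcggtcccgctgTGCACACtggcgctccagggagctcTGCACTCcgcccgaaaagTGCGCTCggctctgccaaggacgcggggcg
Mt2, chr8:94172368-94172667, plus strand: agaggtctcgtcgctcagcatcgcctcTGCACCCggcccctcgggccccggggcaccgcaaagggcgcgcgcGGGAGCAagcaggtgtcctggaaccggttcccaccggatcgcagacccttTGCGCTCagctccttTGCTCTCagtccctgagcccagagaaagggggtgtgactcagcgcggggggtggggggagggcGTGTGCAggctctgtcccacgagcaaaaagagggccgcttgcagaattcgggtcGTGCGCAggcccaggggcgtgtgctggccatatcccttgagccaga
Both matches in Cxcl1, one per strand, overlap in 1 run of capitals. Of 32851 promoters of the same 300-base length, 1.47% hold that NF-kB form, 10.8% hold TTGCNNAA and 51% hold TGCNCNC. This loose metal form is thus common by its letters alone, and Mt1 has 3 matches and Mt2 has 6. In Mt2, TGCTCTC and, read on the other strand, GGGAGCA have T at the first N and match only the loose form. A match describes letters and not binding.

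The chemokine genes Ccl7, Ccl12 and Ccl2 on chromosome 11 rose. Ccl7 had 104, 96.9 and 80.8 FPKM in Vav1 DTX EC and 7.02, 7.79 and 8.64 FPKM in Vav1 control EC (log2 difference 3.43 ± 0.14, SE; adjusted p = 5.86e-05). Ccl12 had 51.1, 37.7 and 25.6 FPKM in Vav1 DTX EC, against 1.71, 0.683 and 1.29 FPKM in Vav1 control EC (log2 difference 4.11 ± 0.28, SE; adjusted p = 0.000155). Ccl2 had 152, 242 and 89.4 FPKM in Vav1 DTX EC and 27.2, 28.5 and 35.6 FPKM in Vav1 control EC (log2 difference 2.26 ± 0.33, SE; adjusted p = 0.00344). A window was drawn to 100 kb beyond these 3 genes after their values were seen. Its count, 3 of 4 tested genes higher, therefore follows in part from that choice. The other gene in it to pass the filter, Ccl8, also named after its values were seen, differed by -1.16 and was not called (adjusted p = 0.213). Of the inflammatory activation list, 10 of 29 tested genes rose and 4 fell. Il1b, the cytokine interleukin 1 beta, was among the falls, with 137, 267 and 113 FPKM in Vav1 DTX EC, against 747, 810.0 and 829 FPKM in Vav1 control EC (log2 difference -2.30 ± 0.30, SE; adjusted p = 0.00204). Tnf, tumour necrosis factor, rose to 48.6 ± 5.42 FPKM in Vav1 DTX EC, against 21.1 ± 3.17 in Vav1 control EC (SD, n = 3 each) (log2 difference 1.17 ± 0.15, SE; adjusted p = 0.00187). That rise was lost when libraries were scaled to the pan-endothelial level, where 8 list members rose and 3 fell. Without Vav1 DTX EC replicate 1 or any one control, the list counted 5 higher and 4 lower.

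Other large rises belonged to no single list. Tmem252, a transmembrane protein, had 43, 345 and 60.1 FPKM in Vav1 DTX EC and 1.63, 0.844 and 1.04 FPKM in Vav1 control EC (log2 difference 5.51 ± 0.71, SE; adjusted p = 0.00191). Retnla, a resistin-like protein of alternatively activated macrophages and other cells, had 10.7, 30.5 and 42.4 FPKM in Vav1 DTX EC, against 0.767, 0.204 and 0.165 FPKM in Vav1 control EC (log2 difference 4.22 ± 0.47, SE; adjusted p = 0.00102). It passed the filter through the Vav1 DTX EC libraries only. Slc10a6, a transporter of sulfated steroids, had 20.4, 147 and 33.4 FPKM in Vav1 DTX EC and 2, 1.27 and 2.42 FPKM in Vav1 control EC. Gpnmb, a membrane glycoprotein of phagocytic macrophages and osteoclasts, had 32.6, 31.7 and 18.9 FPKM in Vav1 DTX EC, against 1.42, 2.38 and 0.521 FPKM in Vav1 control EC (log2 difference 3.59 ± 0.33, SE; adjusted p = 0.000497). It rose although the monocyte and macrophage list fell.

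Lipid handling genes were higher in part. Fabp4, a fatty acid carrier of endothelium and adipocytes, had 4498, 15355 and 3542 FPKM in Vav1 DTX EC and 1479, 1745 and 1738 FPKM in Vav1 control EC (log2 difference 1.92 ± 0.51, SE; adjusted p = 0.0331). Lpl (lipoprotein lipase) had 59.1, 227 and 92.7 FPKM in Vav1 DTX EC, against 27.6, 28.2 and 31.2 FPKM in Vav1 control EC (log2 difference 1.86 ± 0.44, SE; adjusted p = 0.0207). For both, every Vav1 DTX EC library exceeded every control, with replicate 2 the highest. Fabp4 was at an adjusted p of 0.0548 without Vav1 DTX EC replicate 1 and of 0.11, 0.0925 and 0.0917 without control replicate 1, 2 or 3. It differed by 1.27 without Vav1 DTX EC replicate 2. Lpl was at 0.0738, 0.0706 and 0.061 without those controls. Of 12 fatty acid uptake genes, 3 rose and 1, the transporter Slc27a4, fell, beside 11.3% and 15% of all tested genes.

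In the list of the integrated stress and unfolded protein responses, 14 of 25 genes rose and 3 fell. Chac1, a glutathione-degrading enzyme induced by the transcription factor ATF4, had 3.82, 5.42 and 4.06 FPKM in Vav1 DTX EC and 1.19, 1.27 and 1.09 FPKM in Vav1 control EC (log2 difference 1.30 ± 0.16, SE; adjusted p = 0.00151). Phgdh, the first enzyme of serine synthesis, had 102, 71.2 and 104 FPKM in Vav1 DTX EC, against 39.1, 32.3 and 34.7 FPKM in Vav1 control EC (log2 difference 1.34 ± 0.17, SE; adjusted p = 0.00199). Sdf2l1 and Creld2, induced in the endoplasmic reticulum, rose by 1.05 and 0.88. Heat shock genes rose in 7 of 14 members and fell in 1, Dnajb1, named after its values were seen. Hspa1a, an inducible HSP70 whose reads are shared with its near-identical copy Hspa1b, had 23.1, 39.5 and 69.6 FPKM in Vav1 DTX EC and 8.69, 7.28 and 10.6 FPKM in Vav1 control EC (log2 difference 2.07 ± 0.37, SE; adjusted p = 0.00713). Hspd1, the mitochondrial chaperonin HSP60, had 91.1, 69.8 and 112 FPKM in Vav1 DTX EC, against 46.8, 42.8 and 41.7 FPKM in Vav1 control EC.

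Ribosomal protein genes rose in 8 of 38 and fell in none, with a median of 0.34. On TPM 33 rose, without Vav1 DTX EC replicate 2, 24 rose, and with scaling to the pan-endothelial level none did. The stress list gave 1 higher and 1 lower under that scaling, and the heat shock list 2 and 0. Chac1 and Hspa1a stayed called. Eef2, the elongation factor that the toxin inactivates, had 246, 290.2 and 209 FPKM in Vav1 DTX EC and 249, 274 and 294 FPKM in Vav1 control EC and was not called (adjusted p = 0.528). Mouse Hbegf, the gene for the native toxin receptor homologue, had 4.45, 20.6 and 4.61 FPKM in Vav1 DTX EC, against 3.09, 4.07 and 4.42 FPKM in Vav1 control EC and was not called (adjusted p = 0.262).

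Glycolysis genes rose in 7 and fell in 3 of 17 members. Without Vav1 DTX EC replicate 1, none rose and 2 fell, and the counts were the same numbers without any one control. Without Vav1 DTX EC replicate 2 they were 12 and 3, and without replicate 3, 1 and 3. Ldha, lactate dehydrogenase A, had 702, 463 and 763 FPKM in Vav1 DTX EC and 375, 347 and 327 FPKM in Vav1 control EC, with an adjusted p of 0.0228 and of 0.0756 without Vav1 DTX EC replicate 1. The p was 0.0601 without Vav1 DTX EC replicate 3, and without control replicates 1 to 3 it was 0.0676, 0.08 and 0.0912. Cell cycle genes gave 1 higher and 1 lower of 42, or 4.76% of the list, against 26.3% of all genes. The counts were 21 higher and 2 lower without Vav1 DTX EC replicate 2, and that library held 0.255% of its FPKM sum in the list, against 0.466% and 0.519% in the other Vav1 DTX EC libraries.

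A contrast with irradiation shows where the Vav1 contrast differed from that of another marrow injury. Bone EC libraries of Cdh5-mTnG mice given 9 Gy were set against libraries of untreated Cdh5-mTnG mice (3 each, in another table), and the difference of the differences was tested over 11207 genes. It passed for 3287 genes (29.3%), of which 1675 lay above (14.9%) and 1612 below (14.4%) in the Vav1 contrast. Of the calls, 51.0% lay above on FPKM and 97.2% after scaling to the pan-endothelial level, where the median of all genes shifted from -0.03 to 1.02. Pan-endothelial genes held 1.4% to 2.05% of the FPKM sum in irradiated bone EC and 0.482% to 0.590% in bone EC. Recovered reads came to 2698079 to 3655581 in these libraries, fewer than in any Vav1 library.

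Neutrophil genes separated the contrasts widely. The primary granule list had a median difference of 1.19 after ablation and of -5.03 after irradiation, and all 7 tested genes lay above. The late neutrophil list had medians of -0.53 and -3.73, with 22 of 24 genes above. Interferon genes ran the other way, with medians of -0.55 after ablation and 1.32 after irradiation and 38 of 42 genes below. Scaled to the pan-endothelial level, 7 of 7, 24 of 24 and 18 of 44 lay in the same directions. Cell cycle genes had medians of 0.06 and -1.92, with 37 of 42 above and, with that scaling, 41. T and NK genes had medians of -1.91 and 0.61, with 15 of 18 below and, with that scaling, 9 below and 1 above.

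**Figure D5:**
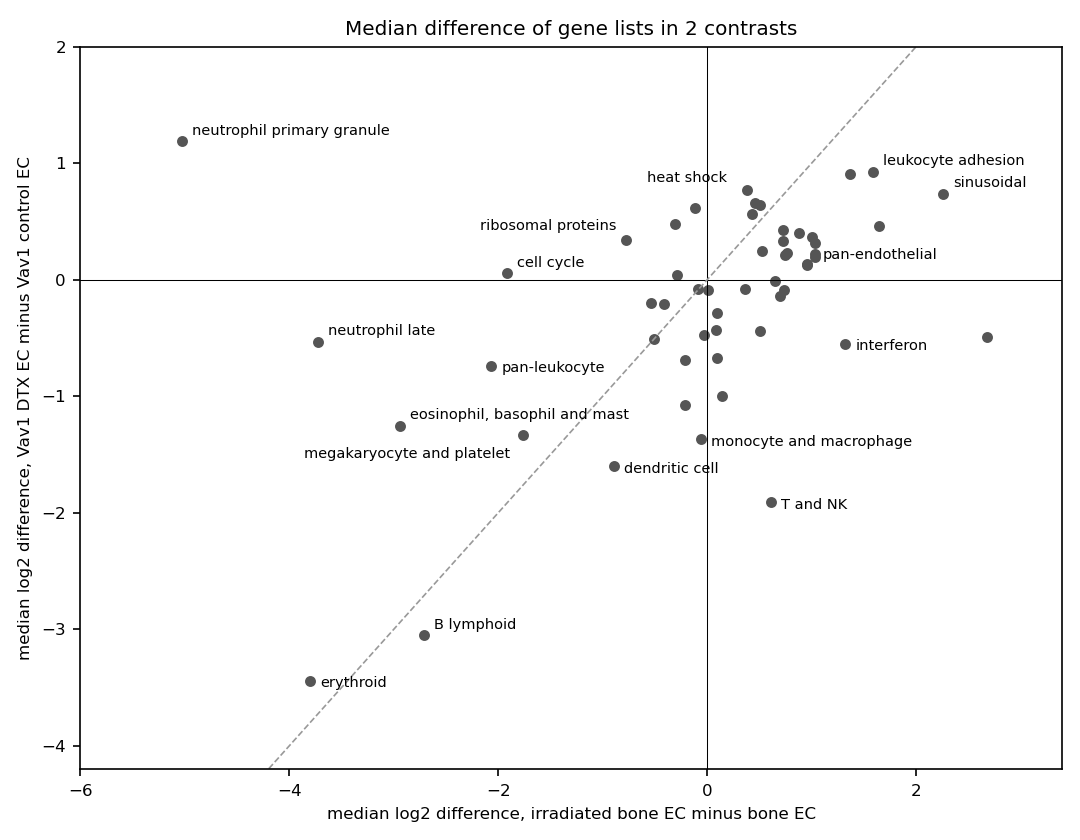
Median log2 difference of each gene list with at least 5 genes tested in both contrasts, after Vav1-driven ablation (vertical axis, n = 3 against 3) and after irradiation (horizontal axis, n = 3 against 3); the dashed line marks equal values. Primary granule, late neutrophil and cell cycle lists lie above the line, and interferon and T and NK lists below it.

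Of the 10 genes with the largest differences in each direction after ablation, Hba-a1, Alas2, Slc4a1, Cd79a and Ms4a1 fell after irradiation too, by 6.42, 6.04, 4.19, 4.53 and 4.87. Tmem252 and Madcam1 rose in both, by 5.51 and 4.21 after ablation and by 4.35 and 3.54 after irradiation, and the difference between contrasts was not called (adjusted p = 0.322 and 0.534). BC100530 was at 16.2, 3.54 and 3.61 FPKM in irradiated bone EC and at 2.08, 2.90 and 5.23 FPKM in bone EC, and its difference between contrasts was 4.66 ± 0.77 (SE, adjusted p = 0.00196). Igj differed in sign, with 407, 165 and 179 FPKM in irradiated bone EC against 62.7, 57.1 and 110.4 FPKM in bone EC. Its fall after ablation and its rise after irradiation were 8.72 apart on the log2 scale (adjusted p = 5.01e-06). Csf3 did not pass the filter in the irradiation table and was not compared. Choosing genes by the size of their Vav1 difference favours a gap between the contrasts.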

How the data were processed

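Cells were sorted by FACS from crushed, collagenase-digested femur and tibia, and libraries were made with SMART-Seq v4 and Nextera XT kits, per the labels' protocols. The authors deposited FPKM values per gene symbol. The build was mm10, per the submitters' processing notes, which also list HTSeq 0.6.1, TopHat2 2.1.1 and, with no stated role, DESeq2 1.18.1. Such kits mark no strand, so exon overlaps leave Alas2, Il1b, Prtn3, Hspd1, Icam1, Selp and BC100530 uncertain. Of the table's 38926 symbols, 27 turned into dates were left out.

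Differences were fitted with limma 3.58.1 (R 4.3.3; eBayes with trend) on log2(FPKM + 1) of 6 libraries, with Benjamini-Hochberg adjustment over all tested genes and a threshold of 0.05. Fold changes of low genes are understated on this scale. Whole reads were recovered from the FPKM steps (tolerance 0.005) for 99.99% of tested genes, and limma voom on them called 2947 genes. The irradiation table was normalized separately, so only differences within tables were compared. Named genes are the 15 largest called differences in each direction (groups apart, higher mean of at least 5 FPKM, no predicted genes or receptor segments), up to 6 called members of each list by p, and identity genes. Members and lists were chosen with earlier results of these data known. Scripts were tested on simulated data. Positions come from GENCODE vM21 and promoters from RefSeq (GRCm38.p6). Alternatives covered pseudocount, filter, scaling, trend, replicate block and leaving out each library.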

Additional observations from a re-analysis of the deposited data

Results flagged for a closer look

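For 6 of the genes with the largest differences, the Vav1 DTX EC minus Vav1 control EC difference and the irradiated bone EC minus bone EC difference were themselves different by the limma test across 12 libraries (n = 3 per group, values on the log2 scale). The gap was 4.66 for BC100530 (adjusted p = 0.00196), 4.89 for Stfa1 (adjusted p = 0.00436) and 3.88 for Stfa2 (adjusted p = 0.00274), the stefin A genes. Igj, the joining chain of antibodies, had a gap of -8.72 (adjusted p = 5.01e-06), with a fall after ablation and a rise after irradiation. For the red cell genes Alas2 and Hba-a1, which fell in both contrasts, the gaps were 1.47 (adjusted p = 0.0252) and 1.56 (adjusted p = 0.0460). All 6 genes were picked for a large Vav1 difference, which is itself a term of the gap, so gaps on the side of that difference may be overstated. The cause was not tested.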

How the results depend on the processing

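The count of 3065 calls was 1277 when scaled to the pan-endothelial level (147 higher, 1130 lower). Higher calls were 2926 on TPM and lower calls 1025 with a mean of at least 5 FPKM. Leaving out each library gave 1657 to 4782 calls, 494 to 2418 higher and 1136 to 2364 lower. For the difference from irradiation, scaling to the pan-endothelial level gave 5826 calls (5663 above, 163 below), a mean of at least 5 FPKM gave 1039 below, and leaving out each library gave 1064 to 2273 below. Same-numbered libraries of the Vav1 groups correlated in their deviations at 0.15, -0.04 and -0.22, so the numbers were not taken as pairs. A replicate block gave 2123 calls (738 higher, 1385 lower) and 1062 below for the difference from irradiation.

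The named genes that reversed were ones not called. On TPM, differences were 0.11 for Eef2, 0.08 for Emcn, 0.11 for Kdr, 0.07 for Kitl, 0.06 for Plvap, 0.21 for Tek and 0.01 for Vav1. Over the fits that left out 1 library, Cdh5 ranged from -0.09 (without DTX replicate 2) to 0.57, Emcn from -0.56 to 0.14, Kdr from -0.38 to 0.20, Plvap from -0.43 to 0.08 and Tek from -0.15 to 0.07 (all highest without DTX replicate 3), Kitl from -0.31 to 0.06 (without control replicate 3) and Vav1 from -0.51 to 0.15 (without DTX replicate 2). Myl1, a muscle gene, ranged from -1.41 to 1.01, where it was called (adjusted p = 0.00924, without control replicate 2), and was at 0.25 with a pseudocount of 0.1 and 0.68 with limma voom. Xist ranged from -0.13 to 0.23, and was at -0.06 with a pseudocount of 0.1 and -0.03 with limma voom. The cause was not tested. At 3 libraries against 3, an exact permutation test of 1 gene cannot go below p = 0.10. FPKM shares blood cell and endothelial RNA in one total, and DTX replicate 2 decides many counts.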

Other observations

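Of 18 tested cholesterol synthesis genes, 5 were lower (15% of all tested genes were) and 2 were higher (against 11.3% of all tested genes) in Vav1 DTX EC. Insig1, a sterol sensor of the endoplasmic reticulum, fell to 4.39 ± 0.549 FPKM in Vav1 DTX EC, against 11.4 ± 0.199 FPKM in Vav1 control EC (SD, n = 3 each; limma adjusted p = 0.000979). Fdps, which makes farnesyl pyrophosphate, rose to 124 ± 20.4 FPKM in Vav1 DTX EC, against 55.4 ± 0.658 FPKM in Vav1 control EC (limma adjusted p = 0.00194). Scaled to the pan-endothelial level, the list counted 0 higher and 2 lower.

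Catalase (Cat), which breaks down hydrogen peroxide and is abundant in red cells, fell to 35.3 ± 5.76 FPKM in Vav1 DTX EC, against 134 ± 24.1 FPKM in Vav1 control EC (limma adjusted p = 0.000587). The erythroid list fell in the same libraries, and its part in this result was not tested.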
